A study of Mus musculus with 15 samples.

Results

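The regions described are the H3K4me1 peaks of mouse embryonic stem cells (ESCs) and of D-EPSCs, expanded potential stem cells kept in 1 of the culture conditions of the study. All peaks of both lists were taken, 107222 in ESCs and 102751 in D-EPSCs, which is 209973 of the 439369 peaks in the 6 lists of the series. Each peak was then set against the other list. A peak was shared when at least 1 bp lay under a peak of the other state, and overlapping peaks of both lists were joined into 117552 union regions.

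Chromatin immunoprecipitation sequencing was carried out in 15 samples, and 4 of them (2 per state) stand behind the lists compared here. Both states derive from J1 ESCs of strain 129SV. ESCs were grown in DMEM with 15% fetal bovine serum, 1000 units/mL LIF and both inhibitors of 2i, CHIR99021 (3 µM, against GSK3) and PD0325901 (1 µM, against MEK). D-EPSCs, named Deng EPS in the labels, were grown in N2B27 with 5% serum replacement, 1000 units/mL LIF, 3 µM CHIR99021, 2 µM dimethindene maleate and 2 µM minocycline hydrochloride. Both states thus received LIF and CHIR99021, and of the 2 only ESCs were given the MEK inhibitor. The base medium, serum and inhibitors differ together and cannot be told apart. L-EPSCs, the other EPSC culture, are set beside these states in places and also carry the strain 129SV. They were grown in DMEM/F12 with 20% serum replacement, 1000 units/mL LIF, 3 µM CHIR99021 and 1 µM PD0325901. By the study's methods they also received A-419259, XAV939, JNK inhibitor VIII and SB203580. The labels allow feeder cells of embryonic fibroblasts under the ESCs. By the study's methods both EPSC cultures were kept without feeders for several passages before sequencing, so the use of feeders may differ between the states. A single cell line was studied, so nothing here is known to extend to other lines.

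The 2 samples of a state gave 1 peak list, so no difference below has a replicate error and no p-value was computed. Read depth is unknown from the lists. The ESC list covered 221.1 Mb with a median peak of 1189 bp, and the D-EPSC list covered 187.5 Mb with a median peak of 1134 bp, so every change in covered bases has to be read beside that difference in length. The lists held peaks within 1000 bp of the start site for 5 of 10 pluripotent cell markers in ESCs and 9 of 10 in D-EPSCs, and for 8 and 10 of 15 feeder fibroblast markers. H3K4me1 can mark silent genes too, so these counts describe the marked genome and not expression or cell mixture.

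H3K4me1 is the single methylation of lysine 4 on histone H3. Enhancers carry it whether they are active or only primed, and H3K27ac is the acetylation that joins it at active ones. At active promoters rich in CpG the start site itself carries H3K4me3, and H3K4me1 is pushed to both flanks, which leaves a valley over the start site. Promoters with little H3K4me3, among them many developmental genes held by Polycomb, can carry H3K4me1 across the start site.

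Lost and gained promoters and distal sites, and start sites that D-EPSC peaks moved into, are shown here by 6 sequences on mm9, taken from the reference genome. Start sites are shown by the 300 bases before the start on the gene's strand, and distal regions by the 300 bases at their centre. CpG dinucleotides are in capitals, since CpG content separated gained from lost promoters. The first is the promoter side of Fxyd2 (chr9:45207657-45207956, plus strand), the widest isolated promoter loss, with 225 of the 300 bases under an ESC peak and 0 under a D-EPSC peak. The second is Emx2 (chr19:59532880-59533179, plus strand), the widest isolated promoter gain, with 0 and 300 bases under peaks. Fxyd2 held 4 CpG and Emx2 held 27.
Fxyd2: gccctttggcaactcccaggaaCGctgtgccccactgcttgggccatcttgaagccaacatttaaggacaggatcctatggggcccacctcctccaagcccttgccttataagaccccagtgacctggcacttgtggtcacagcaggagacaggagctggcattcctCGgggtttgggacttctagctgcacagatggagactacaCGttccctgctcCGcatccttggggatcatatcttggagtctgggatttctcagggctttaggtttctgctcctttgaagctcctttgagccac
Emx2: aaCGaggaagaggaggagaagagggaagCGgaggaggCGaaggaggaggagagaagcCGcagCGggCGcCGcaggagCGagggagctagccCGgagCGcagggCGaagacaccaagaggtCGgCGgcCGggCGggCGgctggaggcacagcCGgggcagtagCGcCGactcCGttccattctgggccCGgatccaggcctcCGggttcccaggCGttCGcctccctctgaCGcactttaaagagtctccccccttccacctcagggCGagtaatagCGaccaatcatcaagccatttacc
The distal pair lies outside genes, 173341 bp from the start site of 4931429L15Rik (lost, chr9:46307331-46307630), and in an intron of Trio (gained, chr15:27896420-27896719). These 2 windows held 4 and 2 CpG and are written on the plus strand.
Distal lost: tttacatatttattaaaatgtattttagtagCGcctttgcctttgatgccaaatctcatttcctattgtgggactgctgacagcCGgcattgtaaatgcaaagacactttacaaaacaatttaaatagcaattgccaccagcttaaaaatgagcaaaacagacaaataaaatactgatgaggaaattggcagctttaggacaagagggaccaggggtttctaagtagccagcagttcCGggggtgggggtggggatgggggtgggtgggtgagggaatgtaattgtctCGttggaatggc
Distal gained: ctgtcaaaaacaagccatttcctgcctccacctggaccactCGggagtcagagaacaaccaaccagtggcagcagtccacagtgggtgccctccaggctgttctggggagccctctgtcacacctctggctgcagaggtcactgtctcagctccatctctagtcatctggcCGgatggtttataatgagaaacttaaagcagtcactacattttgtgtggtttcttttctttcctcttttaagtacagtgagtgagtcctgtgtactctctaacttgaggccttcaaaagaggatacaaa
The last pair are start sites where D-EPSC peaks moved into a stretch that was bare in ESCs, Hist1h3a (chr13:23854256-23854555, minus strand) and Nanog (chr6:122657207-122657506, plus strand). Nanog was picked after its values were seen. All 300 bases before Hist1h3a and 249 of the 300 before Nanog lay under D-EPSC peaks, against 0 in ESCs for both.
Hist1h3a: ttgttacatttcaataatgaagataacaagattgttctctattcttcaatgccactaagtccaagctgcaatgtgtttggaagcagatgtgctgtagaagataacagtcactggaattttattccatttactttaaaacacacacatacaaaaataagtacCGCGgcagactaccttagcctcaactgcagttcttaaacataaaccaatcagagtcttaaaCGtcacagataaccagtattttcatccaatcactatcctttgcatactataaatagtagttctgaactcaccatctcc
Nanog: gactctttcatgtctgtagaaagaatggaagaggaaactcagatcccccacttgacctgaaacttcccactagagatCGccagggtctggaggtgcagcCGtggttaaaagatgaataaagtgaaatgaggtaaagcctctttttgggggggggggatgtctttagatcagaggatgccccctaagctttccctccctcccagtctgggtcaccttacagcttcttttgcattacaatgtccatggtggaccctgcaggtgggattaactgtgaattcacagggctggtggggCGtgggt

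Promoters and distal sites were compared first. Promoters were kept or gained in D-EPSCs, whereas distal sites were lost more often than gained. Of 19419 union regions within 1000 bp of a protein-coding start site, 375 (1.93%) were lost (ESC peak, no D-EPSC peak) and 1975 (10.2%) were gained. Of 98133 distal regions 24770 (25.2%) were lost and 15629 (15.9%) were gained. Where both states had peaks, a region was called narrowed when D-EPSC bases were at most 0.5 times the ESC bases and widened when they were at least double. At promoters 660 regions (3.40%) were narrowed, 14902 (76.7%) kept and 1507 (7.76%) widened. At distal sites 9722 (9.91%) were narrowed, 44314 (45.2%) kept and 3698 (3.77%) widened. With the lists as deposited the balance ran in opposite directions, with more widening than narrowing at promoters and the reverse at distal sites. It turned at promoters when only the widest ESC peaks up to the D-EPSC bases were taken, with 584 regions narrowed and 345 widened.

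**Figure D1:**
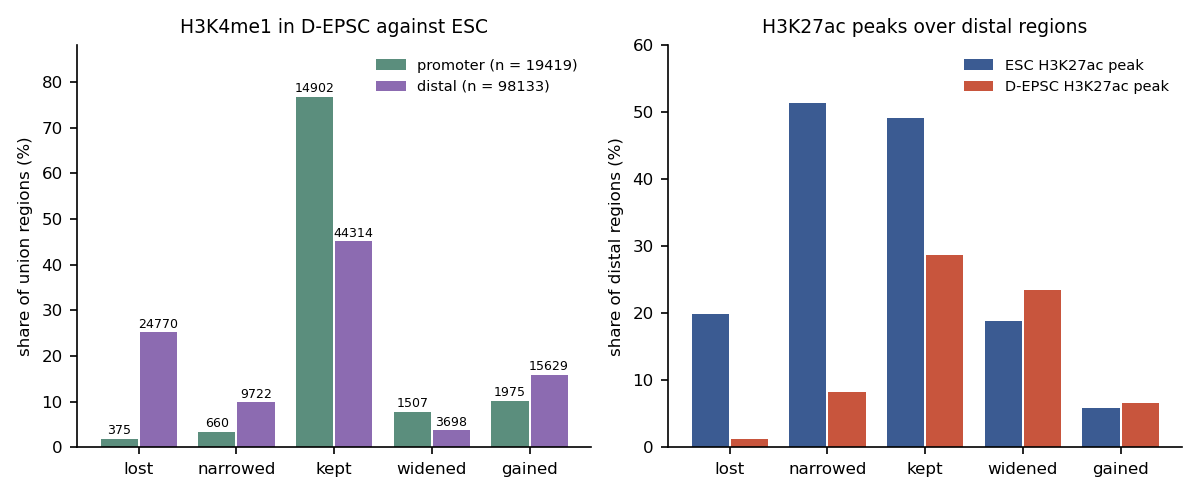
Left, share of promoter and distal union regions (y axis, %) in each H3K4me1 class (x axis), with the number of regions above each bar. Right, share of distal regions (y axis, %) of each class with an H3K27ac peak of ESCs or D-EPSCs. Promoters were kept in 76.7% and distal sites in 45.2%, and lost distal sites had an ESC H3K27ac peak in 19.9%.

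Single peaks gave the same lost and gained sites over other totals, since a lost or gained region is by its definition 1 unshared peak. A D-EPSC peak met 97.6% of the 15583 ESC promoter peaks and 73.0% of the 91639 ESC distal peaks. In the other direction, an ESC peak met 89.7% of the 19092 D-EPSC promoter peaks and 81.3% of the 83659 D-EPSC distal peaks. Lost peaks were narrow. The median lost distal peak was 634 bp wide, against 1553 bp for ESC distal peaks that D-EPSCs shared, and gained distal peaks had a median of 536 bp against 1259 bp for shared ones. Few were near misses, since 12.0% of lost distal peaks lay within 1000 bp of a D-EPSC peak and 10.97% of gained ones within 1000 bp of an ESC peak. Among regions with peaks of both states the median ratio of D-EPSC to ESC bases was 1.06 at 17069 promoters and 0.857 at 57734 distal sites. Distal regions were also placed differently along genes. Of lost ones 60.4% overlapped a protein-coding gene and the median distance to a start site was 27.8 kb, whereas 47.0% of gained ones did so at a median of 42.8 kb.

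Per gene, H3K4me1 was found within 1000 bp of the start site of 12859 of 22350 protein-coding genes in ESCs and of 14993 in D-EPSCs. A peak within this window was lost at 359 start sites, 1.61% of all, and gained at 2493, 11.2% of all. The count of gains depended on the window, with 4974 for 500 bp and 1231 for 2500 bp. A gained start site can thus have ESC peaks just outside the window. Dusp6, named below, was gained although ESC peaks lay within 2500 bp on both sides. CpG-rich start sites (at least 50% GC and a CpG ratio of at least 0.6 over the 500 bp on either side) were almost never lost, 6 of 9879, while 1625 were gained. CpG-poor start sites were lost at 353 and gained at 868 of 12471. In sequence, gained promoter regions averaged 53.0% GC with 3.85 CpG per 100 bases and widened ones 54.7% with 4.53, against 48.3% with 1.46 for lost and 46.9% with 1.77 for kept ones.

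The valley over the start site was shallower and narrower in D-EPSCs. The start base itself lay under a peak for 2544 genes (11.4%) in ESCs and for 5863 (26.2%) in D-EPSCs. At CpG-rich genes this share was 3.19% in ESCs and 22.5% in D-EPSCs, and the upstream shoulder was highest at 1100 bp from the start in ESCs (54.7% of genes) and at 700 bp in D-EPSCs (68.3%). Downstream, the highest point was 65.6% at 1650 bp in ESCs and 77.7% at 1200 bp in D-EPSCs. Both shoulders thus stood closer to the start site and higher in D-EPSCs. Farther out the order of the states was the opposite, with 48.7% of CpG-rich genes covered at 3000 bp downstream in ESCs and 42.9% in D-EPSCs. At CpG-poor genes the start base was covered at 17.9% in ESCs and 29.2% in D-EPSCs.

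**Figure D2:**
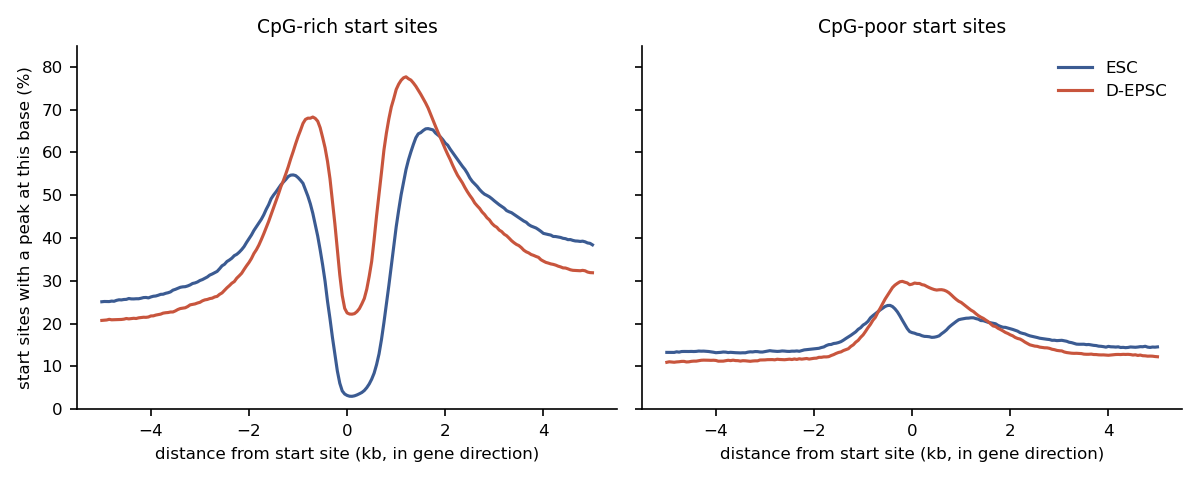
Share of protein-coding start sites with an H3K4me1 peak (y axis, %) at each distance from the start site (x axis, kb, in the direction of the gene), for CpG-rich and CpG-poor genes, ESCs in blue and D-EPSCs in red. The dip at CpG-rich start sites reached 3.19% at the start base in ESCs and 22.5% in D-EPSCs.

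To follow single valleys, a start site was called flanked when its base was bare and peaks lay within 2500 bp on both sides. ESCs had 9358 flanked start sites, and D-EPSCs covered the start base of 2069 of them, 22.1%. In the reverse comparison, of 8232 start sites flanked in D-EPSCs 80 (0.972%) were covered in ESCs. Another 7142 were flanked in both states. There the bare stretch had a median of 1751 bp in ESCs and 1128 bp in D-EPSCs and was narrower in D-EPSCs at 7044 (98.6%). The D-EPSC list covered fewer bases than the ESC list. Trimming ESC peaks to the same total can only widen a bare stretch in ESCs, so it cannot test the narrowing. With trimmed ESC peaks the stretch was narrower in D-EPSCs at 6589 of 6655 start sites (99.0%).

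Filling was then set beside H3K27ac, which the classes of start sites did not use. Among flanked start sites with an H3K27ac peak within 1000 bp in both states, 11.9% were filled, and with one in D-EPSCs only, 11.2%. The share was 39.8% where only ESCs had H3K27ac and 46.4% where neither state did. Start sites with ESC H3K27ac only or with none were also filled more often than the other groups within each CpG class, although the order inside these pairs differed. Within CpG-rich genes the shares were 6.32% (both), 7.95% (D-EPSCs only), 26.1% (ESCs only) and 42.5% (neither). CpG-poor genes were filled at 46.5%, 38.7%, 58.0% and 56.2% in that order of groups. The D-EPSC H3K27ac list was shorter, 32782 peaks against 64342, and the part of that difference in the groups was not tested.

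**Figure D3:**
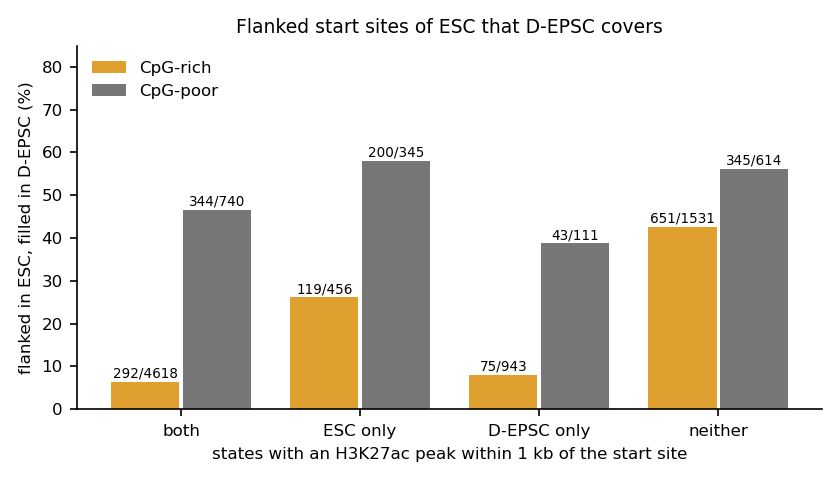
Share of start sites flanked by H3K4me1 in ESCs whose start base D-EPSC peaks covered (y axis, %), by the states with an H3K27ac peak within 1 kb (x axis) and by CpG class (colour), with filled over flanked sites above each bar. CpG-rich sites without H3K27ac in either state were filled at 42.5%, and those with it in both states at 6.32%.

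The 5 filled start sites with the widest bare stretch in ESCs were Hist1h3a (a histone H3 gene, 4829 bp), 2610002D18Rik (4769 bp), Arid5b (a DNA-binding cofactor, 3784 bp), Aim1l (3624 bp) and Ccdc116 (3408 bp). Of the 2001 bases around these start sites ESC peaks covered 0 at all 5. D-EPSC peaks covered 1441 at Hist1h3a, 1084 at 2610002D18Rik, all 2001 at Arid5b, 747 at Aim1l and 1821 at Ccdc116, and L-EPSC peaks (the other EPSC culture, with the same ESCs as its comparator) covered 842, 1611, 2001, 575 and 960. Hist1h3a belongs to a cluster of near-identical histone genes, where the placement of reads is uncertain. Arid5b showed both kinds of change at once, since its locus (gene with 10 kb on either side) held 129.7 kb under peaks in ESCs and 82.5 kb in D-EPSCs while its start site filled.

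Gene lists of lineages and pathways were described next by their start sites and loci. Among all genes 16065 loci had at least 2 kb under peaks in either state. D-EPSCs had at least 2-fold fewer bases at 845 of them, 5.26%, and at least 2-fold more at 1005, 6.26%, and the median log2 ratio of D-EPSC to ESC bases was -0.12. Some genes are members of several lists, so the counts of lists are not independent of each other.

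Neural start sites were mostly covered in D-EPSCs. The start base lay under a peak for 4 of 19 neural genes in ESCs and for 16 in D-EPSCs, against 11.4% and 26.2% of all genes. All 10 of those flanked in ESCs were filled, beside 22.1% of all flanked start sites. They included Neurog1 and Neurog2, proneural factors, Olig1 and Olig2 of the oligodendrocyte and motor neuron lineage, Nes, the filament protein nestin, and Pax7, Nkx2-2 and Dbx1, patterning factors of the neural tube, and with Neurod1 and Mtap2 these are the 10. At Neurog2 ESC peaks covered 0 and D-EPSC peaks all 2001 of the bases around the start site, and L-EPSC peaks 2001. At loci the list had 4 of 18 with at least 2-fold more bases and 0 with fewer, and its median log2 ratio was 0.48. Neurod1 held 1.03 kb in ESCs and 5.08 kb in D-EPSCs, Olig1 1.12 and 2.83 kb, En1 2.53 and 9.78 kb, and Pax3 4.14 and 19.0 kb. L-EPSC values were 4.98, 2.62, 5.19 and 4.49 kb, so the Pax3 locus was wide in D-EPSCs alone.

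Other developmental lists showed the same kind of start site. In the formative and primed epiblast list the start base was covered at 5 of 20 genes in ESCs and 13 in D-EPSCs, and 7 of 11 flanked start sites filled. Fgf5, the marker of primed epiblast, held 1.22, 5.05 and 2.54 kb in ESCs, D-EPSCs and L-EPSCs. Pou3f1, a POU factor of the epiblast, held 3.22, 6.80 and 4.17 kb. Trophoblast genes went from 6 to 14 of 24 covered start bases with 6 of 11 filled, among them Tcfap2c (Tfap2c), Gata2, Id2 and Eomes. Few loci of that list passed the 2-fold limit: Ets2, a factor of trophoblast self-renewal, held 9.05 kb in ESCs and 2.55 kb in D-EPSCs, Plac1 2.48 and 0.81 kb, and Esx1 0 and 3.03 kb. Mesoderm genes went from 7 to 14 of 20 covered start bases, and 4 of 19 loci had at least 2-fold more bases, Isl1, Myod1, Foxf1a and Pax1. Start sites of this kind are described by the H3K4me1 lists alone, and Polycomb or H3K4me3 at them was not analysed here.

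The 4 Hox clusters, which pattern the body axis, differed from each other by locus. Covered start bases went from 5 to 8 of 12 genes in HoxA, 5 to 8 of 10 in HoxB, 2 to 7 of 9 in HoxC and 5 to 8 of 10 in HoxD. In HoxC all 9 loci held fewer bases in D-EPSCs, with a median log2 ratio of -0.60. Hoxc10 held 19.8 kb in ESCs and 9.32 kb in D-EPSCs, and Hoxc11 17.6 and 7.78 kb. Neighbouring Hox loci overlap, so these 9 are not separate measurements. In HoxA 7 of 12 loci held more bases and the median was 0.15. Of all 16065 loci 9757 held fewer bases and 6307 more. After the ESC list was trimmed to the covered bases of D-EPSCs, 8 of 9 HoxC loci still held fewer bases and 11 of 12 HoxA loci held more. Of all 15958 loci 6245 then held fewer and 9710 more, so the counts of all loci moved the same way as those of HoxA.

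**Figure D4:**
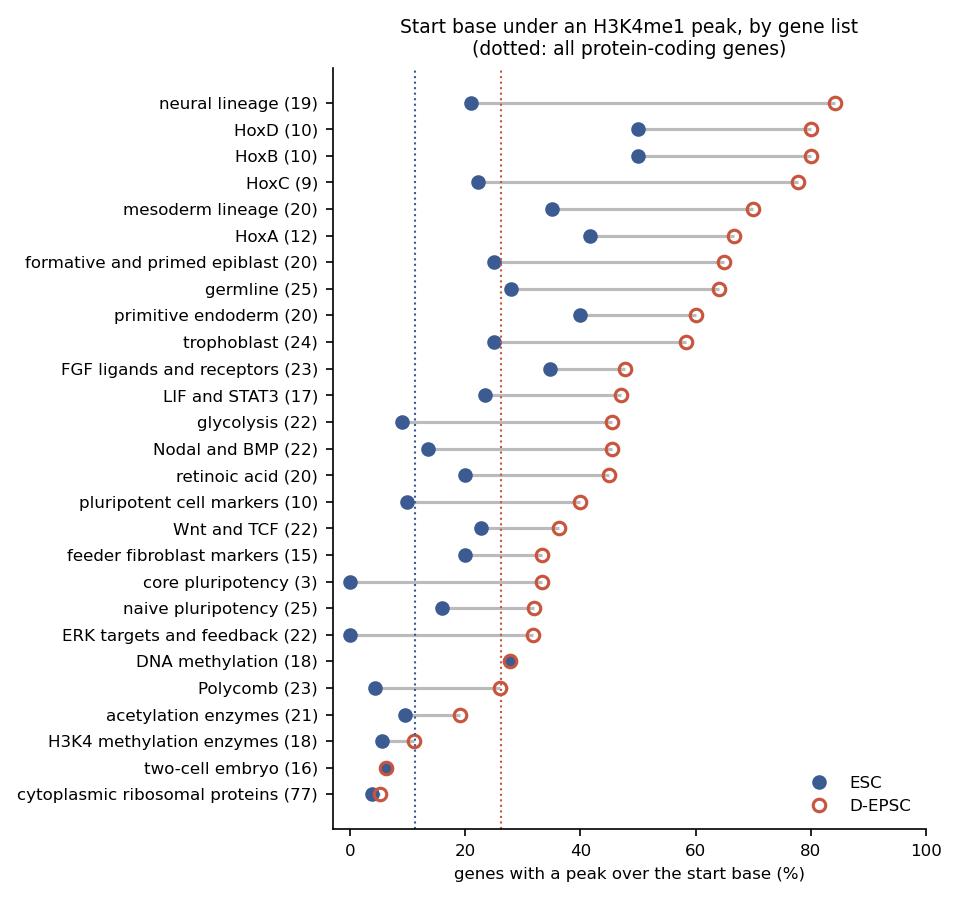
Share of genes of each list (y axis, number of genes in brackets) whose start base lay under an H3K4me1 peak (x axis, %), ESCs filled and D-EPSCs open, with dotted lines for all protein-coding genes (11.4% and 26.2%). The neural list moved from 4 to 16 of 19 genes and cytoplasmic ribosomal protein genes stayed at the low end in both states.

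Cytoplasmic ribosomal protein genes lay at the other end by their start base. Of 77 cytoplasmic ribosomal protein genes 3 had a covered start base in ESCs and 4 in D-EPSCs, and of 60 flanked start sites 1 was filled. Their bare stretch was narrower all the same, at 69 of 69 start sites with a bare stretch of at most 10 kb in ESCs, with a median of 2513 bp in ESCs and 1611 bp in D-EPSCs. Across all genes 93.8% of 10710 such stretches were narrower, with medians of 1751 and 1019 bp. The limit of 10 kb was set after the data were seen. Within 1000 bp, 15 of the 77 ribosomal protein start sites were gained (19.5%), beside 11.2% of all genes. Glycolysis genes did not lie at the low end. Their start base was covered at 2 of 22 in ESCs and 10 in D-EPSCs, and 5 of 13 flanked start sites were filled.

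Pluripotency genes had wide valleys in ESCs, and most of these were narrower in D-EPSCs. Only the total width of a bare stretch was measured, and the side from which it narrowed was not tested. For Pou5f1 (chr17:35642982-35647721), Sox2 (chr3:34548927-34551383) and Nanog (chr6:122657507-122664651), the core factors, the bare stretch was 3462, 6295 and 5053 bp in ESCs. In D-EPSCs it was 0, 4491 and 2144 bp. Sox2 and Nanog counted as gained start sites for this reason, with 0 bp in ESCs, 699 and 949 bp in D-EPSCs and 605 and 1010 bp in L-EPSCs within 1000 bp of the start. Of 25 naive pluripotency genes 5 start sites were gained (20%) beside 11.2% of all genes, Klf4, Zfp42, Tdgf1, Myc and Mycn. The stretch at Klf4, a factor of the LIF pathway, was 7310 bp in ESCs and 1750 bp in D-EPSCs, at Tbx3 6270 and 1417 bp, and at Zfp42 (Rex1) 5156 and 2693 bp. Of the 20 naive genes with a bare stretch of at most 10 kb in ESCs it was narrower in D-EPSCs at 19 (95%). This is near the 93.8% of 10710 such stretches over all genes, so the narrowing was not particular to these genes.

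Covered bases of naive loci changed less. None of the 25 passed the 2-fold limit in either direction, and the median log2 ratio was 0.08. Tfcp2l1, a LIF target, held 47.5 kb in ESCs and 25.6 kb in D-EPSCs, and Prdm14, a repressor of DNA methylation genes, 25.8 and 21.8 kb. Covered bases at Nr5a2, a nuclear receptor that binds the Pou5f1 promoter, decreased by 16.7 kb to 43.3 kb. On the other side Lin28a, a repressor of let-7 processing, held 13.3 and 19.9 kb. Esrrb, an orphan nuclear receptor, held 79.5 and 84.2 kb. The start of Nr5a2 was covered in ESCs and bare in D-EPSCs, unlike the gained start sites of the list, with 1123 and 189 bp within 1000 bp of it.

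Signalling genes that the media address were counted next. Targets and feedback genes of ERK, the kinase downstream of the MEK inhibited in ESCs and not in D-EPSCs, numbered 22. Of these 6 start sites were gained (27.3%, beside 11.2% of all genes), among them Dusp6, Spry1, Egr2, Ier2 and Myc, and 0 were lost. The share was not particular to this list. Gains were at 5 of 18 genes of H3K4 methylation enzymes (27.8%), at 5 of 21 of acetylation enzymes (23.8%) and at 16.4% of CpG-rich start sites. The start base was covered at 0 of 22 in ESCs and 7 (31.8%) in D-EPSCs, beside 11.4% and 26.2% of all genes. The bare stretch was narrower at 19 of 19, beside 93.8% over all genes. None of the 22 loci passed the 2-fold limit, and 12 held more bases in D-EPSCs, beside 6307 of 16065 of all loci. With ESC peaks trimmed to the D-EPSC bases 3 of 22 held at least 2-fold more and 20 held more at all, beside 1464 and 9710 of 15958 of all loci. At Dusp6, a phosphatase of ERK, ESC peaks covered 0 and D-EPSC peaks 489 bp around the start, at Egr2 0 and 1433 bp, and L-EPSC peaks covered 2001 and 1533 bp. L-EPSCs received PD0325901 as ESCs did. GSK3, which CHIR99021 inhibited in both states, acts in the Wnt pathway. The list of 22 Wnt and TCF genes mixes targets with components of the pathway such as Gsk3b, Apc and Axin1. Of these 22 loci 16 held fewer bases in D-EPSCs and 6 more, beside 9757 and 6307 of 16065 of all loci. The median log2 ratio was -0.30. With trimmed ESC peaks 16 of 22 again held fewer, beside 6245 of 15958 of all loci. At least 2-fold more bases were found at 3 loci and at least 2-fold fewer at 2. Lef1 held 17.1, 42.5 and 14.8 kb in ESCs, D-EPSCs and L-EPSCs, and Lgr5, a Wnt receptor partner, 3.97, 10.6 and 6.504 kb. Tcf7l2, a factor of the same family as Lef1, held 89.8, 36.7 and 55.1 kb.

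Primitive endoderm genes held more bases at several loci, although they lost start sites at 2. At least 2-fold more bases were found at 4 of 19 loci. Among them Sox7 held 2.15 kb in ESCs and 5.43 kb in D-EPSCs, Dab2 0.41 and 2.07 kb and Lrp2 14.5 and 31.7 kb. Lama1, a laminin chain, was the 1 with fewer, at 29.8 and 8.49 kb. The start site of Hnf4a was covered by 1453 bp in ESCs and 0 in D-EPSCs, and that of Srgn by 613 and 0, and those of Cubn and Foxq1 were gained. Of the remaining lists, those of Polycomb (23 genes), glycolysis (22), Nodal and BMP (22) and retinoic acid (20) had 0 loci past the 2-fold limit in either direction. Uhrf1, which guides maintenance methylation, held 30.4 and 13.1 kb, and Tet3, which oxidises methylcytosine, 5.00 and 11.2 kb. The DNA methylation list had the same number of covered start bases in both states, 5 of 18. Germline genes went from 7 to 16 of 25, with 4 of 15 loci at least 2-fold higher in covered bases and 1 lower. Of the enzymes that place or remove methylation on H3K4 and their partners, Kdm6a, an H3K27 demethylase encoded on the X chromosome, passed the limit with 6.52 kb in ESCs and 20.6 kb in D-EPSCs. Fgf10, an FGF ligand, held 21.0 and 7.27 kb. LIF and STAT3 genes had 1 locus past the limit, Jak1 with 8.94 and 4.05 kb, and 0 with trimmed ESC peaks. Of 16 two-cell embryo genes matched, 14 had no peak near the start in either state, and most belong to multigene families where reads are hard to place.

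Single loci were ranked by the bases they gained or lost. The largest falls were broad domains inside genes. Ror2, a receptor of non-canonical Wnt signalling, held 147.4, 53.7 and 58.4 kb in ESCs, D-EPSCs and L-EPSCs. Peli2, a ubiquitin ligase of innate signalling, held 55.9, 5.97 and 15.5 kb, and Epb4.1l4b, a band 4.1 protein, 70.9, 22.3 and 13.7 kb. In 7 more genes of the first 10, Crtac1, Wwc2, Dab2ip, Akap2, Arhgef10l, Mtap4 and Rbm47, ESCs held 79.6 to 112.4 kb and D-EPSCs 32.1 to 63.6 kb. H3K27ac was lower at the same loci, from 82.1 to 7.01 kb at Ror2, 9.43 to 0 kb at Peli2 and 33.4 to 0.20 kb at Epb4.1l4b. The whole H3K27ac list was shorter in D-EPSCs, 44.4 Mb against 107.4 Mb, and its part in these falls was not tested. Loci over 200 kb were not ranked.

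The largest rises were smaller than the falls. Chd7, a chromatin remodeller, held 27.7, 60.2 and 35.8 kb in the same order of states. Lef1 came second. Efnb2, an ephrin ligand, held 17.3, 38.9 and 22.6 kb, Bcl11a, a zinc finger factor, 9.68, 28.4 and 17.3 kb, and Zeb2, a factor of epithelial to mesenchymal transition, 7.75, 25.5 and 14.7 kb. Galnt7, Tle4, Cuedc1, Lrp2 and Dnmt3a complete the 10, with 14.5 to 54.0 kb in ESCs and 31.7 to 77.2 kb in D-EPSCs. H3K27ac at Efnb2 was 0 kb in ESCs and 13.6 kb in D-EPSCs and at Lef1 0 and 5.90 kb, whereas at Zeb2 both states had 0 kb. In L-EPSCs the Tle4 locus held 26.6 kb, under its 54.0 kb in ESCs, so the rise at Tle4 was not found in the other EPSC culture.

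**Figure D5:**
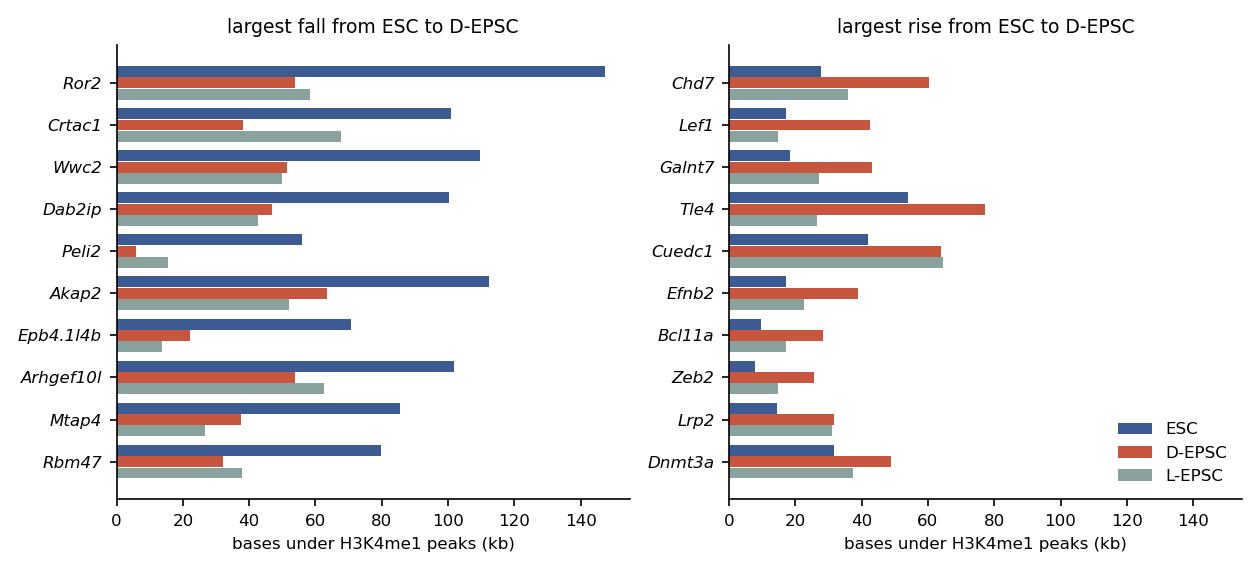
Bases under H3K4me1 peaks (x axis, kb) over the gene with 10 kb on either side, for the 10 loci with the largest fall (left) and rise (right) from ESCs to D-EPSCs, with L-EPSCs beside them. Ror2 held 147.4 kb in ESCs and 53.7 kb in D-EPSCs, and Chd7 27.7 and 60.2 kb.

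Windows of 100 kb, which do not depend on gene ends, were ranked in the same way. Of the 3 largest falls Ror2 and Epb4.1l4b, and of the 3 largest rises Chd7 and Efnb2, were also among the ranked loci. Of 18316 windows with a peak 9637 held fewer bases in D-EPSCs and 8674 more. The largest falls were at Ror2 (chr13:53300001-53400000, 77.3 kb in ESCs and 19.09 kb in D-EPSCs), Epb4.1l4b (chr4:57100001-57200000, 61.2 and 11.04 kb) and Fndc3b (chr3:27500001-27600000, 61.6 and 14.1 kb). The largest rises were at Csrp3 and E2f8 (chr7:56100001-56200000, 12.9 and 42.2 kb), Chd7 (chr4:8600001-8700000, 17.6 and 43.3 kb) and a window of Efnb2 (chr8:8600001-8700000, 36.7 and 61.0 kb). H3K27ac in the window of Csrp3 and E2f8 was 0.28 kb in ESCs and 11.6 kb in D-EPSCs.

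Isolated regions, with no peak of the other state within 5000 bp, gave the clearest single losses and gains. There were 104 such lost promoters. The widest were Fxyd2, a subunit regulator of the sodium pump (chr9:45204981-45207881, 2901 bp, ending 76 bp before the start site), 4921513D11Rik (chr17:80023971-80026596, 2626 bp, over its first exon and an intron of Fam82a1), Gm6498 (chr14:48816263-48818639, 2377 bp, inside an intron of Peli2) and Pramel7, a gene of preimplantation embryos (chr2:87337314-87339484, 2171 bp). L-EPSC peaks covered 0, 1855, 0 and 405 bp of them. ESC H3K27ac peaks lay over 3 of the 4, all but Gm6498, and D-EPSC H3K27ac peaks over 0.

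Isolated promoter gains numbered 984. The widest were Emx2, a homeobox factor of the forebrain (chr19:59531996-59536937, 4942 bp), Cybb, a subunit of the phagocyte NADPH oxidase (chrX:9064431-9068255, 3825 bp), the shared promoter of the imprinted genes Sgce and Peg10 (chr6:4695637-4698903, 3267 bp) and Nkx2-1, a homeobox factor of lung, thyroid and forebrain (chr12:57634165-57637410, 3246 bp). All 4 regions overlap exons and untranslated regions of the gene named. L-EPSC peaks covered 3342, 3691, 2482 and 3246 bp of them. A D-EPSC H3K27ac peak lay over Cybb alone.

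Among promoters with peaks of both states, Lama1 (25037 bp in ESCs, 7477 bp in D-EPSCs), Pou2f3, a POU factor of tuft cells (26625 and 10872 bp), and Ido2, an enzyme of tryptophan breakdown (23401 and 8202 bp), had the largest falls. In each of them a domain of 1 or 2 ESC peaks was broken into 4 to 7 D-EPSC peaks. The largest rises were Gm98 (17419 and 26208 bp), Crmp1, a semaphorin signalling protein (2470 and 10110 bp), and Ezr, which links actin to the membrane (40836 and 47074 bp), where 2 to 5 ESC peaks became 1.

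Distal losses with no D-EPSC peak within 5000 bp numbered 9320. The widest was the region shown above near 4931429L15Rik (chr9:46301410-46313551, 12142 bp), followed by an intron of Peli2 (chr14:48749975-48759425, 9451 bp), an intron of Qk, an RNA-binding protein (chr17:10440676-10448410, 7735 bp), and a site 200195 bp from Rftn1 (chr17:50122996-50129804, 6809 bp). Isolated distal gains numbered 8893. They were led by an intron of Trio, a guanine nucleotide exchange factor (chr15:27894082-27899057, 4976 bp), and sites nearest to Lonrf2 (4646 bp), Isx (4633 bp) and H47 (4561 bp). The gains were narrower than the losses, and L-EPSC peaks covered 0 bp of the Trio region. Among distal regions of both states a single ESC peak of 75807 bp in introns of Ror2 (chr13:53247762-53323568) was split into 13 D-EPSC peaks of 34812 bp, and a region in introns of Foxo3 went from 29288 to 8578 bp. The largest distal rise, in an intron of Cybb, went from 1572 to 13281 bp.

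H3K27ac was set beside the distal classes, which it had not defined. Of lost distal regions 19.9% carried an ESC H3K27ac peak, while narrowed ones did in 51.4% and kept ones in 49.2%. A D-EPSC H3K27ac peak lay over 1.28% of lost, 8.32% of narrowed, 28.7% of kept, 23.5% of widened and 6.62% of gained regions. Gained regions mostly had no H3K27ac in either state (90.2%), and so did lost ones (79.9%), beside 63.4% of all distal regions. L-EPSCs, compared side by side, had an H3K4me1 peak at 27.6% of lost, 89.8% of kept and 52.1% of gained distal regions. The low D-EPSC shares stand beside the shorter H3K27ac list of that state, 44.4 Mb against 107.4 Mb. The classes also differ in width. The median region was 634 bp for lost and 536 bp for gained ones, against 1963 bp for narrowed and 1885 bp for kept ones. A wider region meets a peak more easily, and the part of width in these H3K27ac and L-EPSC shares was not tested.

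Short sequence motifs were counted in the central 500 bp of each distal region on both strands. The KLF and ESRRB motifs were found more often in lost than in gained regions. KLF (GGGTGTGG) was in 10.99% of lost, 8.30% of kept and 6.69% of gained regions, with 8.65% of all distal regions, and ESRRB (TCAAGGTCA) in 3.62%, 2.79% and 1.83%, with 2.81% of all. The opposite order was seen for ZIC (CAGCAGG), in 15.6%, 18.8% and 23.9%, with 18.6% of all, and for TFAP2 (GCCNNNGGC), in 10.5%, 13.2% and 15.3%, with 12.7% of all. AP-1 (TGACTCA) was in 8.97%, 10.2% and 11.1%, with 9.91% of all, and TCF/LEF (CTTTGAT) in 9.29%, 8.22% and 7.97%, with 8.46% of all. The octamer of POU5F1 (ATGCAAAT) was in 4.37%, 4.26% and 4.64% (4.33% of all), SOX (ACAATGG) in 8.18%, 8.29% and 8.69% (8.31% of all) and OTX2 (GGATTA) in 20.1%, 19.9% and 19.8% (19.9% of all), so these differed little between the classes. For GRHL, GATA, TEAD, ETS, STAT (1.80% of lost and 1.75% of gained), the MYC E-box and the DR2 pair, the shares of lost and gained regions differed by at most 0.555 percentage points. Some of these motifs are rare, so a small difference in points can be large beside the share. ETS was in 0.634% of lost, 0.839% of kept and 1.05% of gained regions (0.801% of all), the order of ZIC. Mean GC was 46.6% in lost and 47.6% in gained regions. Within regions of 40 to 50% GC the orders stayed, with KLF at 11.3%, 8.07% and 7.01% and ZIC at 13.4%, 16.6% and 21.7%. At promoters TFAP2 was in 12.8% of lost and 24.5% of gained regions (14.9% of all promoter regions), which also differ in GC content. Not every distal order was found at promoters. AP-1 was in 10.9% of lost and 5.52% of gained promoter regions (7.50% of all), the reverse of distal regions, and ZIC in 72 of 375 lost and 358 of 1975 gained ones (18.1% of gained, 14.6% of all). KLF was in 8.53% and 3.85% (5.10% of all) and ESRRB in 2.13% and 0.456% (1.59% of all), as at distal sites more often in lost ones. A motif is a match of letters and not a bound site.

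The X chromosome departed from the autosomes. Of its 2184 union regions 35.5% were gained in D-EPSCs, against 11.7% to 16.9% over the 19 autosomes, and 31.9% were kept, against 47.1% to 53.6%. Lost regions were at 18.7%, below the 19.3% to 24.2% of autosomes. ESCs had 1575 X peaks (9.45 per Mb) and D-EPSCs 1837 (11.02 per Mb), while on autosomes ESCs had the higher density, 42.7 against 40.8 per Mb. L-EPSCs had 10.8 X peaks per Mb. Cybb above is one of these X gains. Without the X chromosome 83.3% of D-EPSC peaks met an ESC peak, against 82.9% with it.

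Equal covered bases were obtained in 2 ways. Every ESC peak was shortened at both ends by 15.2% of its width in all, which keeps the number of peaks, or the widest ESC peaks were taken up to the D-EPSC total, which left 55962 of 107222 ESC peaks. With trimmed peaks 358 promoter regions were narrowed and 2313 widened, and 6773 distal regions were narrowed and 5524 widened. At loci, 429 had at least 2-fold fewer bases and 1464 at least 2-fold more. Trimming shortens ESC peaks alone, which by itself moves counts from narrowed to widened. The balance of loci turned. With the lists as deposited 9757 of 16065 loci held fewer bases in D-EPSCs, and with trimmed ESC peaks 6245 of 15958 did. Filled start sites were 2148 of 8952 flanked ones. Trimming leaves D-EPSC peaks unchanged and can only uncover start bases in ESCs, so this count does not test filling. With the widest peaks only, 4702 distal regions were lost and 35794 gained, since the narrow ESC peaks were gone. Promoter regions were then narrowed at 584 and widened at 345, the reverse of the lists as deposited. The counts of lost, gained, narrowed and widened regions and of changed loci therefore depended on how the lists were made equal. Of the neural start sites flanked in ESCs, 10 of 10 were filled with trimmed peaks, which has the same limit as the count of all filled start sites. The neural list was not counted with the widest peaks.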

How the data were processed

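Peak positions were deposited per state and mark as 1 list in BED form on mm9, with chromosome, start and end positions and a name for every peak. The deposited start and end positions are whole base numbers and carry no count, score or signal. According to the submitters' processing notes and the study's methods, the authors aligned 150 bp paired-end reads with Bowtie2 2.3.5, filtered them with SAMtools 1.10 and called broad peaks against input with MACS2. The threshold, and whether the 2 samples of a state were pooled, are not given in the sources used here. Both would change the length of a list, as would depth.

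Lists were assigned to states by their names. Coordinates are 1-based, and all peaks lay within the chromosome ends of NCBIM37, which is mm9. Genes were protein-coding genes of GENCODE M1 (22350 start sites at 22322 positions). Of 553 names listed 545 were matched, 18 of them through RefSeq. Regions, start sites and loci were compared by their covered bases with Python 3.11.15, numpy 2.4.6 and pysam 0.24.0, after the interval code was tested on simulated lists. Named regions were the widest isolated ones and those with the largest change, and named genes were list members, those with a changed start site or locus first. The members and lists were chosen with earlier results of these data known. The values of 1 list member are not reported here.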

Additional observations from a re-analysis of the deposited data

How the results depend on the processing

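Each state has 1 list, so the spread between samples is unknown. No paired analysis was possible because the deposited lists carry no replicate number and no test was run. A total of 126 values were recomputed under other settings, and 87 stayed within 1.5 times of the reported count, or within the 95% Wilson interval of the reported share (counting error only), while 39 moved. The cause was not tested where fewer peaks or wider windows do not give it by construction.

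Trimming, leaving out the X chromosome and motifs in other windows were chosen after seeing the data. With the widest ESC peaks up to the D-EPSC bases, 91.5% of ESC peaks met a D-EPSC peak and 56.9% the reverse, promoter regions were 73 lost, 9628 kept, 345 widened and 8463 gained, distal regions 4702 lost, 29279 kept, 578 widened and 35794 gained, start sites 151 lost and 7117 gained, 760 flanked start sites were filled, and 408 loci had at least 2-fold fewer and 2887 at least 2-fold more bases. With trimming, 82.1% of D-EPSC peaks met an ESC peak, 358 promoters were narrowed and 2313 widened, and 429 loci had fewer bases. With peaks of at least 500 bp the shares were 75.9% and 83.3%, 982 promoters were widened, and 6123 distal regions were narrowed and 2005 widened. With peaks within 1 kb joined, 78.3% of ESC peaks were met and 3664 start sites were filled. At 50% overlap the shares were 62.9% and 74.6%. Without X, 83.3% of D-EPSC peaks were met. Windows of 500 bp gave 9356 kept promoters and 4974 gained start sites, and windows of 2500 bp 913 lost promoters and 1231 gained start sites. A 1.5-fold limit gave 1748 narrowed and 3191 widened promoters, 17742 narrowed and 7422 widened distal regions, and 2666 loci with fewer and 1947 with more bases.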
